A study of Mus musculus with 12 samples.

Results

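The complement genes *C1qa*, *C1qb*, *C1qc*, *C3*, *C4b*, *C3ar1*, *C5ar1* and *Cd55* were followed in sorted microglia of postnatal mouse brain. The 8 genes were found by matching their symbols to the Ensembl identifiers of the count table, and all 8 were among its 55487 genes. Gene expression had been measured by RNA-seq in 12 libraries, 3 from each sex of microglia that carried the ARG1 reporter and 3 from each sex of microglia that did not. The mice were of the YARG strain, in which YFP follows the stop codon of *Arg1*, the gene of the enzyme arginase 1, so that cells with an active *Arg1* locus fluoresce. All were taken at postnatal day 13 (P13), and the tissue came from the basal forebrain and striatum, below the corpus callosum. Cells with CX3CR1 and without CD206 at the surface were divided by YFP into ARG1+ and ARG1- microglia, and the tissue of 3 to 5 mice was pooled before the sort, so that ARG1+ and ARG1- libraries can share a pool. The controls thus carried the same reporter allele as the ARG1+ cells and came from the same dissected area. ARG1+ female libraries are numbered 7, 8 and 15, ARG1- female libraries 1, 2 and 13, ARG1+ male libraries 11, 12 and 16 and ARG1- male libraries 5, 6 and 14.

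Complement is a cascade of proteins that mark particles and cells for removal. C1q, built from the A, B and C chains that *C1qa*, *C1qb* and *C1qc* encode, opens the classical pathway by binding its target, C4 and C2 form an enzyme on the target's surface, and that enzyme cleaves C3. The large fragment of C3 coats the target for uptake by phagocytes, while the small fragments C3a and C5a signal through the receptors C3AR1 and C5AR1, and CD55 speeds the decay of the enzyme on the body's own cells. Microglia are the main makers of C1q in the brain, and C1q and C3 are known for marking synapses that microglia remove during development.

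Total counts lay between 28356659 and 60625170 per library. A level is given as CPM, the counts of a gene per 1000000 counts of its TMM-scaled library, and 3 counts in a library correspond to 0.0511 to 0.102 CPM. The reads carry no molecular identifiers, so a floor of this kind covers counting error only. All 6 microglial marker genes fixed for the check of cell type had counts in every library. They summed to 40229 to 54354 CPM in ARG1- and 31493 to 39016 CPM in ARG1+ libraries. At an adjusted p under 0.05 in the test given below, 3 of them were lower and 1 was higher in ARG1+ microglia. Over all genes tested, 9.42% were lower and 6.44% higher. The *Arg1* transcript itself had 52 counts in ARG1+ female library 15, 2 counts in ARG1+ female library 8 and 0 in the other 10, so its counts do not check the label of the remaining 4 ARG1+ libraries.

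The 3 C1q genes stand side by side on the minus strand of chromosome 4 (GRCm38), between 136880129 and 136898803, a stretch of 18675 bases. *C1qb* and *C1qc* are 3616 bases apart and *C1qc* and *C1qa* 2851 bases, with 0 annotated genes between them. RefSeq promoter sequences (GRCm38.p6) were matched for 6 of the 8 genes, all but *C1qa* and *C4b*. Those of *C1qb*, *C1qc*, *C3ar1* and *C3* are shown because the first pair of genes fell together, the receptor gene was higher in every ARG1+ library than in any ARG1- library and *C3* was uneven among libraries. All lie on the minus strand and end before the transcription start of both RefSeq and GENCODE, so the stretch for *C1qc*, whose annotated starts are 151 bases apart, is short. They are written 5′ to 3′, with matches to the 3 motifs searched in capitals.
*C1qb*, chr4:136886201-136886450: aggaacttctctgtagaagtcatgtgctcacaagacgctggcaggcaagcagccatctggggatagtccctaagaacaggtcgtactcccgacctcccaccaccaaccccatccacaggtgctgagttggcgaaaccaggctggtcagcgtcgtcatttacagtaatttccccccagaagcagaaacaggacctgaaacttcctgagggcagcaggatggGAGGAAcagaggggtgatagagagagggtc
*C1qc*, chr4:136893066-136893164: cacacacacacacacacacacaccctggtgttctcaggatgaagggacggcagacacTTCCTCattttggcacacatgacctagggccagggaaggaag
*C3ar1*, chr6:122856162-122856407: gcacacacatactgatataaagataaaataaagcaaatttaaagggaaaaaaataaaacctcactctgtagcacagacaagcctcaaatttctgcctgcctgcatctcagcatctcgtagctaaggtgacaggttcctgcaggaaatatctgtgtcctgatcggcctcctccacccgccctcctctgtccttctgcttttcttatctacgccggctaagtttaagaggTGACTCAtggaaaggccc
*C3*, chr17:57228137-57228386: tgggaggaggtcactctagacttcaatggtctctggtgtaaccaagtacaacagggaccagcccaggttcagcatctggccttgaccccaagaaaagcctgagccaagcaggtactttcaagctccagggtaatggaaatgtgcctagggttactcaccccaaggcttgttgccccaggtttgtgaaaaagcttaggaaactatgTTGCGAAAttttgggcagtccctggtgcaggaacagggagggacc
The motifs were GAGGAA, the core bound by PU.1 and other ETS factors, TTGCNNAA, bound by C/EBP factors, and TGANTCA, bound by AP-1, searched on both strands in the 250 bases before the RefSeq start. GAGGAA was found in 2 of the 6 promoters, 30 bases before the start of *C1qb* and, as its reverse complement, 193 bases before the start of *C1qc*, and in 23.3% of 32851 mouse promoters of this length. TTGCNNAA was found 45 bases before the start of *C3* and in 9.56% of all promoters. TGANTCA was found 22 bases before the start of *C3ar1* and in 6.75% of all promoters. The windows of *C5ar1* and *Cd55* held none of these letters in either orientation. These matches describe the sequence, and binding was not measured.

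The levels of the complement genes spanned several orders of magnitude. Per kb of exon, *C1qb* was the most abundant of the 8 in ARG1- microglia, at 7243 ± 538 CPM per kb (SD, n = 6), followed by *C1qc* at 3396 ± 352 and *C1qa* at 2921 ± 438. The last pair lay within their spread of each other over libraries, but within every single library *C1qc* was above *C1qa* per kb of exon. Counted per base of its longest coding transcript, in place of all exons, *C1qc* had 5451 CPM per kb, beyond the spread of *C1qa*, whose length is the same under both counts. *C3ar1* followed at 59.1 ± 7.66 CPM per kb and *C5ar1* at 32.1 ± 6.60. *C3*, at 2.31 ± 1.25, and *C4b*, at 0.984 ± 1.03, lay within their spread of each other, and *Cd55* was lowest at 0.0412 ± 0.101, within the spread of *C4b*. In ARG1+ microglia the order was the same, with *C1qb* at 4558 ± 655, *C1qc* at 2298 ± 316, *C1qa* at 1879 ± 352, *C3ar1* at 118 ± 9.07, *C5ar1* at 48.9 ± 6.98, *C3* at 6.20 ± 6.04, *C4b* at 1.77 ± 1.19 and *Cd55* at 0.0484 ± 0.0967 CPM per kb. Again *C1qc* and *C1qa*, and *C3* and *C4b*, lay within their spread over libraries, and *C1qc* was again above *C1qa* within every library.

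**Figure D1:**
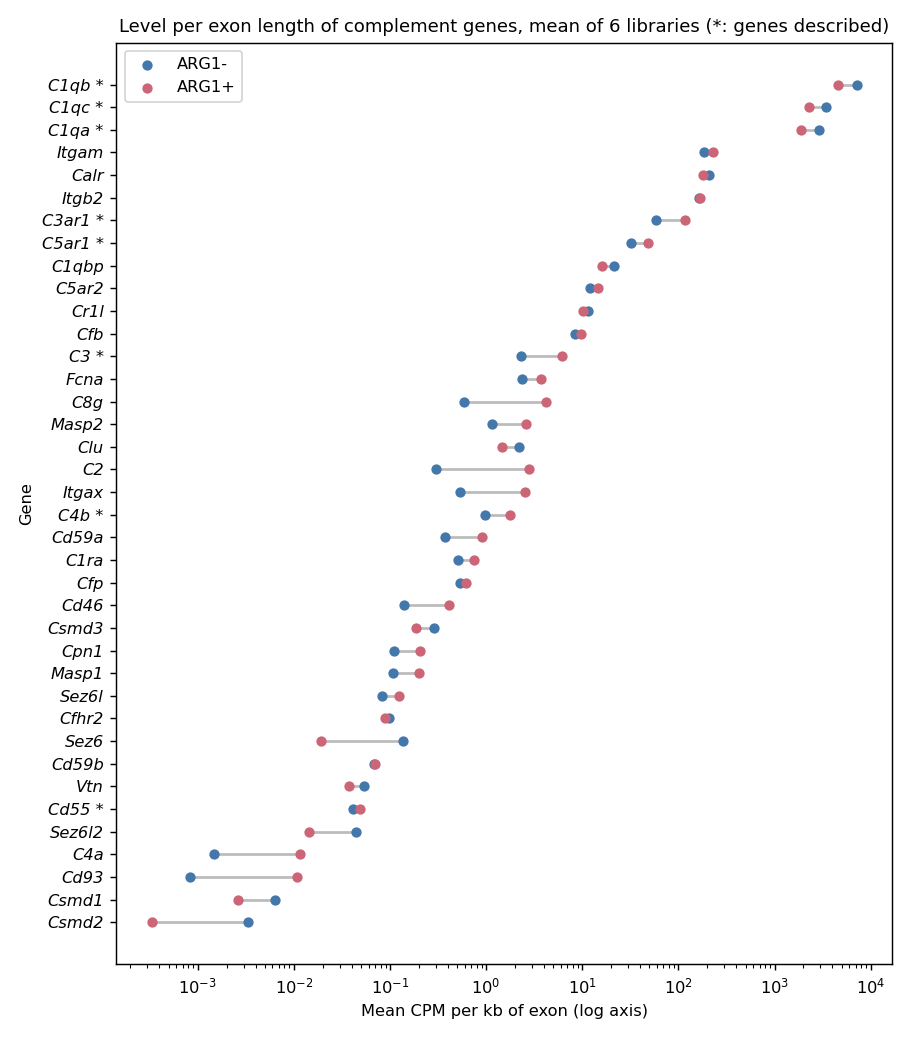
Mean level per exon length (CPM per kb of exon, log axis) of 38 complement genes with a level above 0 in both populations, as the mean of 6 ARG1- (blue) and 6 ARG1+ libraries (red), with asterisks on the 8 genes described. The C1q genes stand at the top, at 1879 CPM per kb or more, the receptor genes *C3ar1* and *C5ar1* lie between 32.1 and 118, and *C3*, *C4b* and *Cd55* lie at 6.20 or less.

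ARG1+ microglia had less C1q message and more of the message of both anaphylatoxin receptors than ARG1- microglia. Of the 8 genes, 7 passed the filter on low counts and were tested, and 5 passed the test at an adjusted p under 0.05 (edgeR's quasi-likelihood test with sex as a second term, Benjamini-Hochberg adjustment over 16908 genes). *C3ar1* and *C5ar1* were higher in ARG1+ microglia, as were 6.44% of all genes tested. *C1qa*, *C1qb* and *C1qc* were lower, as were 9.42% of all genes tested. *C3* and *C4b* did not pass. The median log2 fold change of the 7 genes was 0.60, beside 0.0567 over all genes tested, and it stands between opposite changes of the components and the receptors. All values come from bulk RNA of sorted cells, in which fewer cells of a kind and less RNA per cell cannot be told apart.

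**Figure D2:**
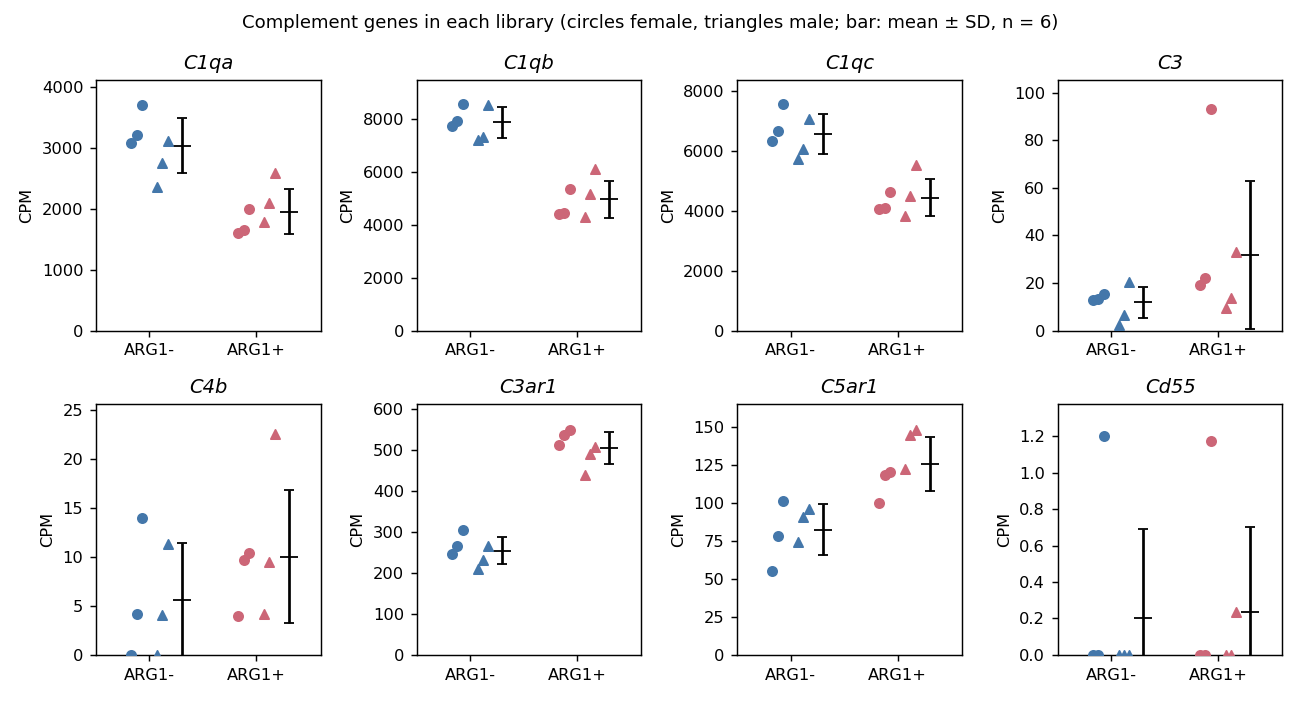
Level of each of the 8 complement genes (CPM) in every library, with circles for female and triangles for male libraries, and a bar for the mean ± SD of the 6 libraries of a population (bars end at 0 where the SD passes it). The populations are separate for *C1qb*, *C1qc* and *C3ar1*, touch for *C1qa* and *C5ar1* and overlap widely for *C3*, *C4b* and *Cd55*.

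*C1qb* (ENSMUSG00000036905), the gene of the B chain, is on chromosome 4 from 136880129 to 136886187. In ARG1- libraries its lowest level was 7200 CPM, the median 7820 and the highest 8567. In ARG1+ libraries the lowest was 4281, the median 4804 and the highest 6103. Every ARG1+ library lay below every ARG1- library, which was so for 6.56% of all genes tested. The mean fell from 7880 ± 585 to 4960 ± 713 CPM (SD, n = 6 each), 0.629 times the level (log2 fold change -0.67, SE 0.09, adjusted p = 0.00101). Its rank by mean level among all genes in the table moved from 8 to 14.

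*C1qc* (ENSMUSG00000036896), the gene of the C chain, lies from 136889804 to 136893065. The ARG1- libraries had a lowest level of 5714 CPM, a median of 6479 and a highest of 7561, and the ARG1+ libraries 3831, 4298 and 5536. The populations were separate here too, although ARG1+ male library 11, at 5536 CPM, came close to ARG1- male library 14, at 5714. The mean fell from 6558 ± 681 to 4438 ± 610 CPM (log2 fold change -0.56, SE 0.10, adjusted p = 0.00311).

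*C1qa* (ENSMUSG00000036887), the gene of the A chain, lies from 136895917 to 136898803. The ARG1- libraries had a lowest level of 2359 CPM, a median of 3100 and a highest of 3711, and the ARG1+ libraries 1595, 1891 and 2587. The populations overlapped through 1 pair, since ARG1+ male library 11 stood above ARG1- male library 14. The mean fell from 3037 ± 456 to 1955 ± 366 CPM (log2 fold change -0.64, SE 0.13, adjusted p = 0.00799). In each of the 3 genes the highest ARG1+ library was ARG1+ male library 11.

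Together the C1q genes held a large part of all counts. They made up 1.58% to 1.81% of the counts of an ARG1- library, with a mean of 1.69% ± 0.098 (SD, n = 6). In ARG1+ libraries the share was 1.01% to 1.48%, with a mean of 1.17% ± 0.18, and ARG1+ male library 11 had the highest of these. The ranges did not overlap. Within a population, the log2 levels of the 3 genes followed each other across libraries, with a Pearson r of 0.91 to 0.98 over the 6 ARG1+ libraries and 0.82 to 0.92 over the 6 ARG1- libraries. These are descriptions over few libraries that share their scaling.

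Ratios of counts within a library do not depend on scaling, and 4 of them were compared by an exact permutation test of the log2 ratio (two-sided, 924 splits of 6 against 6, smallest possible p = 0.0022). *C1qa* counts were 0.384 ± 0.038 of those of *C1qb* in ARG1- and 0.393 ± 0.026 in ARG1+ libraries, a log2 difference of 0.03 (exact p = 0.658, adjusted over the 4 ratios 0.658). Relative to *C1qc*, *C1qa* had 0.462 ± 0.034 and 0.439 ± 0.034, a log2 difference of -0.07 (exact p = 0.279, adjusted 0.372). The test took no account of sex, and within each sex the libraries of both *C1qa* ratios were separate. *C1qa*/*C1qb* was 0.398 to 0.433 in ARG1- and 0.363 to 0.373 in ARG1+ females, against 0.322 to 0.381 and 0.409 to 0.424 in males. *C1qa*/*C1qc* was 0.463 to 0.509 and 0.389 to 0.434 in females, against 0.413 to 0.454 and 0.465 to 0.469 in males. Both were lower in ARG1+ females and higher in ARG1+ males, and this split by sex was not tested. The ratio of *C1qb* to *C1qc* was 1.21 ± 0.056 in ARG1- and 1.12 ± 0.034 in ARG1+ libraries, a log2 difference of -0.11 (exact p = 0.0108, adjusted 0.0433), so that *C1qb* fell slightly more than *C1qc*. Its ranges overlapped, from 1.13 to 1.28 in ARG1- and from 1.07 to 1.17 in ARG1+ libraries, and the adjusted p stayed under 0.05 in 3 of the 12 comparisons that each left out 1 library. Those without ARG1- libraries 13, 5, 6 or 14 or without ARG1+ libraries 7, 8, 11, 12 or 16 had an adjusted p of 0.0519 to 0.0866.

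**Figure D3:**
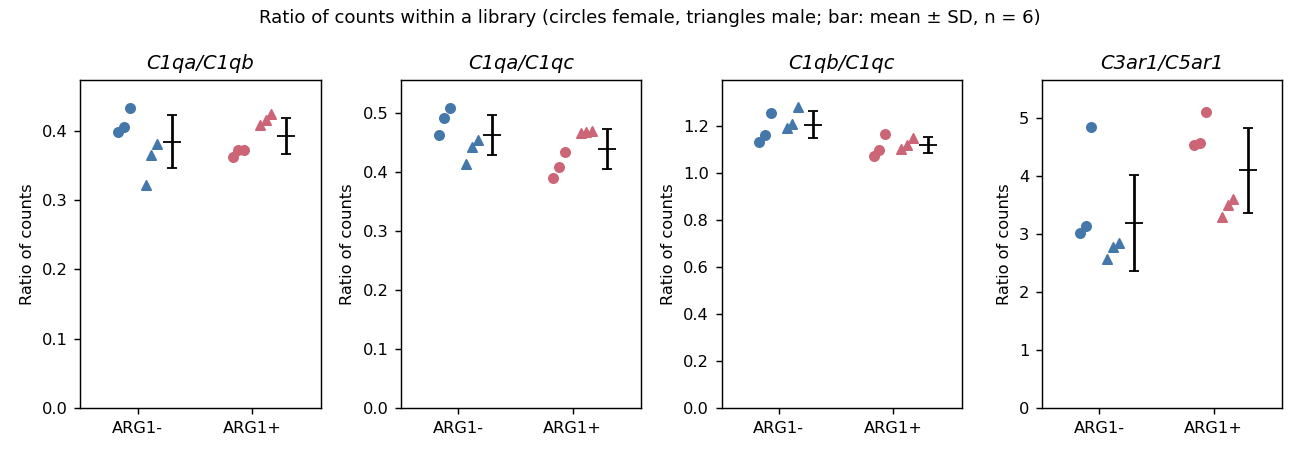
Ratio of the counts of 2 complement genes within each library, with circles for female and triangles for male libraries, and a bar for the mean ± SD of 6 libraries. The means of the ratios among C1q genes differ little between populations, at 0.384 and 0.393 for *C1qa*/*C1qb*. Within each sex the libraries of *C1qa*/*C1qb* and *C1qa*/*C1qc* are separate, lower in ARG1+ females and higher in ARG1+ males. *C3ar1*/*C5ar1* has means of 3.20 and 4.11 and overlapping libraries.

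*C3ar1* (ENSMUSG00000040552) encodes the receptor of the C3 fragment C3a and is on chromosome 6 from 122847138 to 122856161, on the minus strand. Its lowest level in ARG1- libraries was 211 CPM, the median 256 and the highest 306. The ARG1+ libraries lay between 440 and 550 CPM, with a median of 510. Every ARG1+ library was above every ARG1- library, as for 3.48% of all genes tested. The mean rose from 255 ± 33.0 to 506 ± 39.1 CPM (SD, n = 6 each), 1.99 times the level, and its rank in the table moved from 585 to 216. The log2 fold change had the smallest error of the 7 genes tested (0.99, SE 0.09, adjusted p = 0.000187).

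*C5ar1* (ENSMUSG00000049130) encodes the receptor of the C5 fragment C5a and is on chromosome 7 from 16246743 to 16259540. The ARG1- libraries had a lowest level of 55.0 CPM, a median of 84.4 and a highest of 101, and the ARG1+ libraries 100.3, 121 and 148. The populations met at their edges, where ARG1- female library 1 at 101.1 CPM was just above ARG1+ female library 7 at 100.3. The mean rose from 82.5 ± 17.0 to 126 ± 17.9 CPM, 1.52 times the level (log2 fold change 0.60, SE 0.14, adjusted p = 0.0134). The ratio of *C3ar1* to *C5ar1* counts was 3.20 ± 0.83 in ARG1- and 4.11 ± 0.73 in ARG1+ libraries. The log2 difference was 0.37 (exact permutation test, p = 0.0541, adjusted 0.108), so this test did not show that *C3ar1* rose more than *C5ar1*. It took no account of sex, although ARG1+ libraries had 4.54 to 5.11 in females and 3.30 to 3.60 in males. In males the populations were separate, with 2.57 to 2.84 in ARG1- libraries. In females they overlapped through ARG1- library 2. Without ARG1- female library 2, whose ratio of 4.84 was the highest of its population, the log2 difference was 0.50 (exact permutation test, adjusted p = 0.0173).

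*C3* (ENSMUSG00000024164), the central component, is on chromosome 17 from 57203970 to 57228136. Its level was low beside that of the C1q genes and uneven among libraries. The ARG1- libraries had a lowest level of 2.55 CPM, a median of 13.03 and a highest of 20.6, and the ARG1+ libraries 9.69, 20.8 and 93.1. ARG1+ female library 15 alone held the top value, and the next of its population was ARG1+ male library 12 at 33.2 CPM. The log2 fold change was 1.31 (SE 0.54, adjusted p = 0.126). ARG1+ female library 15 also had the highest summed endothelial marker level of all libraries, 84.3 CPM, where the other ARG1+ libraries began at 44.9. Among ARG1+ libraries its neuronal sum, 9.35 CPM, was the highest too, and its oligodendrocyte and neutrophil sums, 171 and 331 CPM, were the lowest. The part of these sums in the *C3* value was not tested.

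*C4b* (ENSMUSG00000073418), which encodes the C4 that the classical pathway cleaves, is on chromosome 17 from 34728380 to 34743882. The ARG1- libraries had a lowest level of 0, a median of 4.13 CPM and a highest of 14.05, and the ARG1+ libraries 3.96, 9.64 and 22.6. ARG1- female library 13, the deepest of all 12, and ARG1- male library 14 had 0 counts of *C4b*, whereas 4 ARG1- libraries and all 6 ARG1+ libraries had 125 to 1076. The means were 5.60 ± 5.85 CPM without the reporter and 10.1 ± 6.78 with it (log2 fold change 0.82, SE 1.13, adjusted p = 0.684). Part of the gene cannot be read without its copy *C4a*, since 1306 of 5762 windows of 75 bases, the read length, or 22.7%, were shared with it. *C4a* had at most 8 counts in a library, and adding them left the log2 fold change at 0.83 (SE 1.13, adjusted p = 0.680).

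*Cd55* (ENSMUSG00000026399), the regulator, is on chromosome 1 from 130439027 to 130462744. It had 40 counts in ARG1- female library 1, 37 in ARG1+ female library 7, 8 in ARG1+ male library 16 and 0 in the other 9 libraries. Too low for the filter on counts, it was not tested, and with no filter its log2 fold change was 1.51 (SE 1.88, adjusted p = 0.639, edgeR). Its copy *Cd55b* shared 5.53% of its 75-base windows and had 0 counts in all libraries, and 102 of its exon bases overlap an antisense gene, *Gm16083*, whose reads can be told apart only in stranded counting. In most libraries, the deepest among them, *Cd55* was therefore not detected.

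The 12 fits that each left out 1 library kept the direction of all 7 genes tested and the calls of all 5 genes that passed. *C1qb* ranged from -0.72 to -0.60, *C1qc* from -0.63 to -0.50, *C1qa* from -0.72 to -0.55, *C3ar1* from 0.96 to 1.04 and *C5ar1* from 0.52 to 0.71 on the log2 scale. *C3* had 0.79 without ARG1+ female library 15 and 1.85 without ARG1- male library 5, the only fit of the 12 in which it passed (adjusted p = 0.0297). *C4b* had 0.43 without ARG1+ male library 12 and 1.55 without ARG1- female library 1, and passed in 0 of the 12 fits (adjusted p 0.447 to 0.869). In the 8 libraries not numbered 13 to 16, *C1qb* (-0.72, adjusted p = 0.0350) and *C3ar1* (0.93, adjusted p = 0.0251) passed, while *C1qa* (-0.72, adjusted p = 0.0606), *C1qc* (-0.62, adjusted p = 0.0502) and *C5ar1* (0.53, adjusted p = 0.162) did not. In these libraries *C3* had 0.74 (adjusted p = 0.303) and *C4b* 0.21 (adjusted p = 0.895).

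**Figure D4:**
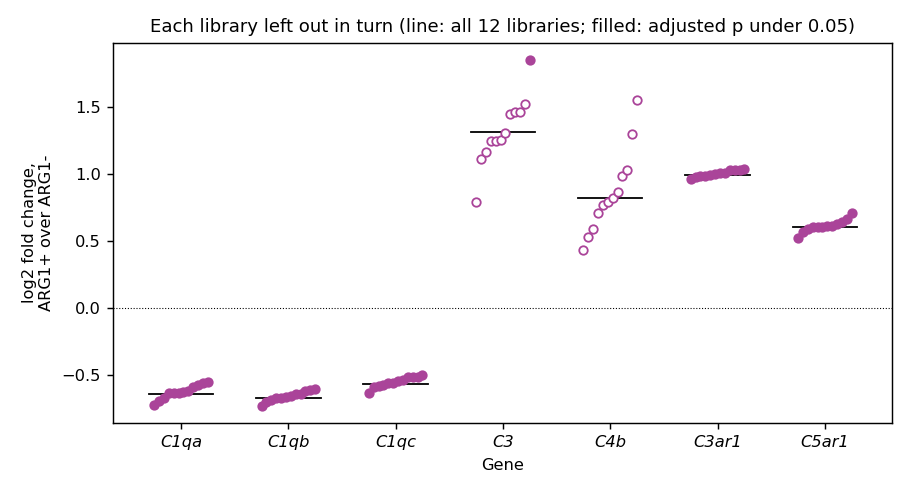
Log2 fold change (ARG1+ over ARG1-) of the 7 complement genes tested in the 12 fits that each left out 1 library, in order of value, with a line for the value from all 12 libraries and filled points for an adjusted p under 0.05. Points for *C3ar1* lie between 0.96 and 1.04, those for *C3* spread from 0.79 to 1.85 and those for *C4b* from 0.43 to 1.55.

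The study sampled both sexes, so the contrast was also read in each. In females, *C1qa*, *C1qb*, *C1qc* and *C3ar1* passed, 4 of the 7 genes tested, beside 6.76% of all genes. In males, *C1qb* and *C3ar1* passed, beside 5.13% of all genes. All 7 genes had the same sign in both sexes. *C3ar1* had nearly the same log2 fold change in females (0.97, SE 0.12) as in males (1.02, SE 0.12). *C1qb* had -0.77 (SE 0.13) in females and -0.57 (SE 0.13) in males, and *C1qc* -0.68 (SE 0.13) and -0.44 (SE 0.13). The widest gap among the C1q genes was that of *C1qa*, with -0.93 (SE 0.15) in females and -0.35 (SE 0.15) in males. In females its libraries were separate, at 3077, 3209 and 3711 CPM in ARG1- and 1595, 1659 and 2000 in ARG1+ microglia. In males they were 2359, 2746 and 3123 CPM against 1782, 2105 and 2587, and overlapped.

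The difference between the sexes was tested as an interaction of ARG1 status with sex (male minus female). None of the 7 genes passed in edgeR's test, where 0 of all genes passed, nor by DESeq2's Wald test, where 1.83% of all genes did. At an unadjusted p under 0.05 only *C1qa* was found (interaction 0.58 on the log2 scale, unadjusted p = 0.0203, adjusted p = 0.491), as were 9.32% of all genes. *C5ar1* had 0.53 (SE 0.20) in females and 0.67 (SE 0.20) in males, *C3* 1.70 (SE 0.78) and 0.93 (SE 0.77) and *C4b* 0.41 (SE 1.64) and 1.24 (SE 1.66). Within ARG1- microglia, males and females differed in 0 of the 7 genes (edgeR, adjusted p 0.579 to 0.998, and 0 at an unadjusted p under 0.05), where 0.0946% of all genes passed and 1692 genes had an unadjusted p under 0.05. Within ARG1+ microglia 0 of the 7 passed as well (edgeR, adjusted p = 1 for each, and 0 at an unadjusted p under 0.05), where 0.0355% of all genes did and 3.12% had an unadjusted p under 0.05. With 3 libraries a group, these tests do not show that the sexes were alike.

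A list of 55 other complement genes set the 8 in their pathway, and all 55 were in the table. Of these, 39 had a count in some library and 26 passed the filter. At an adjusted p under 0.05, 2 were higher and 1 was lower in ARG1+ microglia, beside 6.44% and 9.42% of all genes. The median log2 fold change of the 26 was 0.437, beside 0.0567 over all genes tested. Some of these fold changes have an SE above 1, that of *C2* below among them, so the median does not show a common rise. By role, 2 of 6 genes of the classical pathway were tested, 3 of 8 of the lectin pathway, 2 of 3 of the alternative pathway, 1 of 7 terminal components, 5 of 10 fluid phase regulators, 6 of 12 membrane regulators and 7 of 9 receptors. Those at 0 in all libraries numbered 16, among them *Hc*, which encodes C5, *C1s1* and *C1rb*, which encode proteases of the C1 complex, and the terminal components *C6*, *C7* and *C8b* (examples chosen after their values were seen).

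Among the components, *C8g*, which encodes the gamma chain of C8, rose. Its ARG1- libraries had 0 to 1.87 CPM and its ARG1+ libraries 3.96 to 9.22, with no overlap. The mean rose from 0.875 ± 0.603 to 6.21 ± 1.85 CPM (SD, n = 6 each) (log2 fold change 2.90, SE 0.75, adjusted p = 0.0215), and without ARG1+ male library 12 the adjusted p was 0.0551. *C2*, the partner of C4 in the classical pathway and named after its values were seen, did not pass (log2 fold change 3.23, SE 1.20, adjusted p = 0.0909). Its ARG1- libraries had 147, 2, 2, 94, 0 and 1 counts, and its ARG1+ libraries 218 to 607, so the populations were separate at 0 to 4.41 and 6.46 to 14.8 CPM. It passed by DESeq2's Wald test (adjusted p = 0.0174) and, in edgeR, without ARG1- female library 1 (adjusted p = 0.0346), and 1656 of its exon bases are shared with the readthrough gene *Gm20547*.

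Among regulators and receptors, 5 genes of moderate to high level are given that did not pass the test. *Cr1l*, which encodes a membrane inhibitor of C3 cleavage, had 120 ± 17.0 CPM in ARG1- and 106 ± 9.42 in ARG1+ libraries (log2 fold change -0.17, adjusted p = 0.318). *Itgam* and *Itgb2*, whose products form complement receptor 3, had log2 fold changes of 0.30 (adjusted p = 0.344) and 0.03 (adjusted p = 0.911), although *Itgam* shares 3450 exon bases with *Gm49368*. *Calr*, which encodes calreticulin, a chaperone that binds C1q, had 606 ± 121 and 515 ± 74.3 CPM (-0.23, adjusted p = 0.307). *C5ar2*, which encodes the other C5a receptor and is named after its value was seen, had 42.7 ± 7.54 and 52.3 ± 7.59 CPM (0.28, adjusted p = 0.182).

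The calls among these genes were *Cr2* and *C1qbp*. *Cr2*, which encodes complement receptor 2, had 0 counts in all ARG1- libraries and 0, 25, 23, 4, 37 and 16 in ARG1+ libraries 7, 8, 15, 11, 12 and 16. *Cr2* thus passed the filter on counts through its ARG1+ libraries alone, and its call is to be read with that limit. Its mean of 0.475 ± 0.357 CPM was at least 4.73-fold higher than 3 counts per ARG1- library. The adjusted p of its contrast in edgeR was 0.0223, and without ARG1+ library 8, 15, 12 or 16 it rose to 0.0504 to 0.0601. *C1qbp*, whose product binds C1q and is found mainly in mitochondria, fell from 60.1 ± 6.82 to 45.0 ± 5.83 CPM (log2 fold change -0.42, SE 0.12, adjusted p = 0.0362), with overlapping populations. It passed in 2 of the 12 fits that left out 1 library, those without ARG1- female library 1 and ARG1+ male library 11, and the other 10 had an adjusted p of 0.0560 to 0.115.

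**Figure D5:**
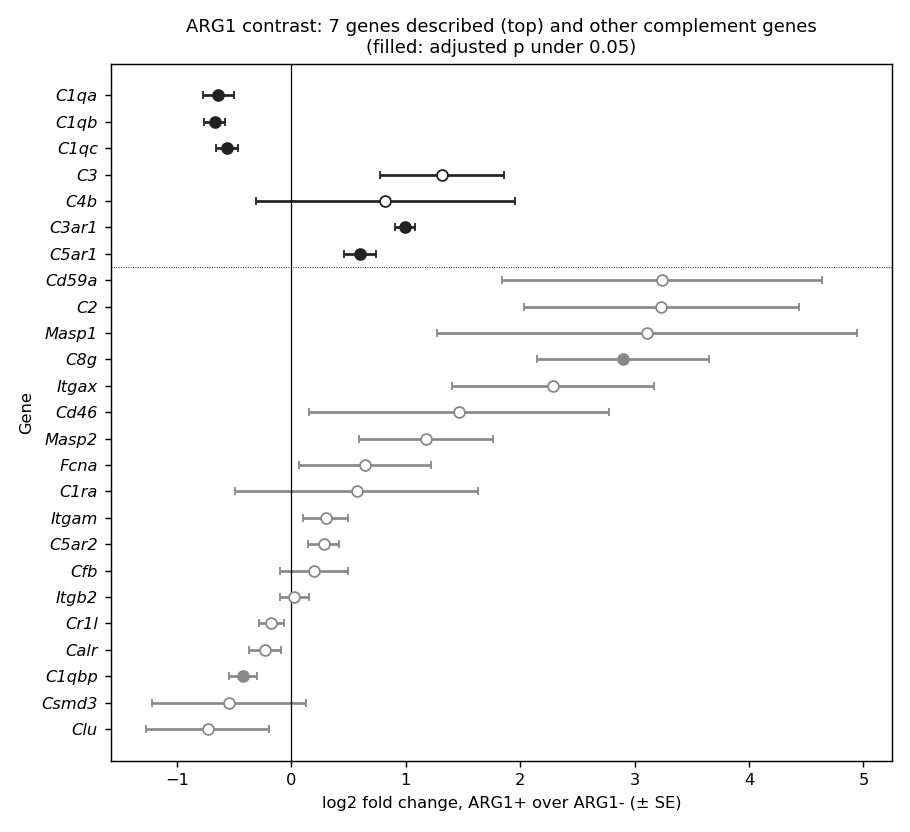
Log2 fold change (ARG1+ over ARG1-, with SE) of the 7 complement genes tested, at the top in black, and of 18 other complement genes with a mean of at least 1 CPM, in grey, with filled points for an adjusted p under 0.05. The C1q genes lie between -0.67 and -0.56, *C3ar1* at 0.99 and *C5ar1* at 0.60, and *C2*, with a larger value of 3.23, has an SE of 1.20 and an open point.

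Markers of other cells that the sort could hold were summed per library, and their part in the values above was not tested. Of 8 border macrophage genes, 6 were tested, and 1 was higher and 0 were lower in ARG1+ microglia. Over all genes tested 6.44% were higher and 9.42% lower, and the calls in the lists below are read beside the same shares. *Stab1*, a scavenger receptor gene and the most abundant, rose from 239 ± 75.3 to 431 ± 138 CPM, and the sum ranged from 293 to 512 CPM in ARG1- and from 397 to 837 in ARG1+ libraries. Defining markers at or near 0 are named here after their values were seen. *Cd163* and *Lyve1* had 0 counts in all ARG1- libraries and means of 0.119 and 0.0662 CPM in ARG1+ libraries. They do not stand for the border macrophage list, in which all 8 genes had a count in some library. The median log2 fold change of the 6 tested was 0.465, beside 0.0567 over all genes tested. Oligodendrocyte genes (1 of 8 lower, *Cnp*) summed to 263 to 383 CPM in ARG1- and 171 to 261 in ARG1+ libraries. Astrocyte genes (1 of 8 lower, *Slc1a3*) summed to 177 to 224 and 130 to 151. Both sums were lower in ARG1+ libraries, as were the C1q genes and the sum of the microglial markers. Monocyte genes (1 of 4 tested lower, *Plac8*) summed to 7.47 to 14.1 and 2.29 to 7.20 CPM, with *Chil3* at 0. Among 8 neutrophil genes 1 was tested and 0 passed, *Csf3r*, which made up nearly all of the sum of 293 to 363 CPM in ARG1- and 331 to 507 in ARG1+ libraries, while *Ly6g* and *Retnlg* were at 0. Endothelial genes (0 of 6 tested passed, *Pecam1* the most abundant and *Cldn5* at 0) summed to 30.5 to 58.8 and 44.9 to 84.3 CPM. Neuronal genes (0 of 6 tested passed, *Meg3* the most abundant) summed to 3.65 to 18.1 and 2.28 to 9.35.

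The genes whose log2 CPM followed each complement gene most closely were read over all 12 libraries, so that r includes the difference between populations. For the mean of the C1q genes these were *Laptm4a*, which encodes a lysosomal membrane protein (Pearson r = 0.985), *Tmem37* (0.983) and *Ltc4s*, which encodes leukotriene C4 synthase (0.982). *Ltc4s* went from 279 CPM in ARG1- to 142 in ARG1+ libraries. For *C3ar1* they were *Anxa5*, which encodes a phosphatidylserine-binding annexin (0.980), and the predicted genes *Gm43654* and *Gm25835* (0.970 each). *Gm43654* went from 0.0044 CPM in ARG1- to 2.56 in ARG1+ libraries and *Gm25835* from 0.0107 to 0.385. Both ARG1- means lay below the level of 3 counts in a library. For *C5ar1* they were *Cables2* (0.965), *Atxn2* (0.928) and *Gas7* (0.928). For *C3* the closest were *Atm*, a DNA damage kinase gene (0.916), *Cenpe*, a kinetochore motor gene (0.881), and *Gm25047* (0.874), and for *C4b* they were *Tmem231* (0.977), *Olr1* (0.971) and *Cbx2* (0.965). These are descriptions over 12 libraries that share their scaling, chosen as the highest of all genes tested.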

How the data were processed

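Per the labels and the study's methods, complementary DNA was made with SMART-Seq v4, libraries with Nextera XT, and 75-base single-end reads were demultiplexed with bcl2fastq 2.20.0, aligned to GRCm38 with STAR 2.6.1d and counted on genes with featureCounts 1.5.1. The values the authors deposited are raw counts per gene, without normalization. The strand and multimapping settings of the counting are not given in the sources used here. The authors tested with DESeq2 1.28.1.

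Of 55487 identifiers, 55141 matched GENCODE M21, and 0 columns were left unused. Counts were filtered with filterByExpr on the 4 groups (16908 genes kept), scaled by TMM and tested by quasi-likelihood (glmQLFTest of edgeR 4.0.16 in R 4.3.3), with ARG1 status and sex as terms. A fit of the 4 group means gave the contrasts by sex and the interaction. P-values were adjusted by Benjamini-Hochberg over all genes tested, with a limit of 0.05. The scripts were tested on simulated data. Ratios were compared by exact permutation in scipy 1.17.1. A level per kb is the CPM divided by the union of a gene's GENCODE exons.

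Alternatives were DESeq2 size factors, no filter, at least 10 counts in every library, DESeq2 1.42.0, ARG1 status alone, a term for libraries numbered 13 to 16, those 4 or the other 8 libraries alone, and each library left out in turn. The labels do not say what sets the libraries numbered 13 to 16 apart. The study describes 3 replicates per sex, each of pooled mice from which ARG1+ and ARG1- cells were sorted, so libraries of the 2 populations can share a pool. The labels do not show which do, and all tests treated the 12 libraries as separate. The members and gene lists were chosen with earlier results of these data known. Genes named are the 8 complement genes, the listed complement genes that passed or had the 5 highest mean levels, the 3 closest genes by r (log2 CPM, prior count 2), the most abundant gene of each marker list and *Arg1*, and any other is said to have been chosen after its values were seen. The results of 3 genes are not reported here.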

Additional observations from a re-analysis of the deposited data

Results flagged for a closer look

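The 8 genes, 9 other complement genes and 4 count ratios were searched in each population, 42 groups of 6 libraries in all, for a single library set apart by a wide gap. There were 5 such groups, and chance gives 2.1. *C3* had 93.1 CPM in ARG1+ female library 15. *C4b* had 22.6 CPM in ARG1+ male library 12. *Cd55* had 1.20 CPM in ARG1- female library 1, the only ARG1- library with a count, and 1.17 CPM in ARG1+ female library 7. The ratio of *C3ar1* to *C5ar1* counts was 4.84 in ARG1- female library 2. No explanation of these values was tested.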

How the results depend on the processing

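*C1qa*, *C1qb*, *C1qc*, *C3ar1* and *C5ar1* kept their direction under every alternative run and their calls under DESeq2 size factors, no filter, at least 10 counts in every library, DESeq2's Wald test, ARG1 status alone, a term for libraries 13 to 16 and each library left out. In the 8 libraries not numbered 13 to 16, *C1qa* (-0.72), *C1qc* (-0.62) and *C5ar1* (0.53) no longer passed, leaving 1 of the 8 genes higher and 1 lower. In the 4 libraries numbered 13 to 16, with 1 library a group, 0 of all genes passed, and *C1qa* (-0.39), *C1qb* (-0.50), *C1qc* (-0.37), *C3ar1* (1.20) and *C5ar1* (0.83) did not, so that 0 were called higher and 0 lower. *C3* passed by DESeq2's Wald test (1.36, adjusted p = 0.0421) and without ARG1- male library 5 (1.85, adjusted p = 0.0297). Its log2 fold change, 1.31 with all libraries, was 0.74 in the 8 libraries and 2.30 in the 4, and its adjusted p ranged from 0.0421 to 0.474 over the alternatives that left out no single library. *C4b*, at 0.82 with all libraries, had 0.21 in the 8 libraries and 1.77 with a term for libraries 13 to 16, and did not pass in any (adjusted p 0.439 to 0.895). In the 4 libraries both ARG1- libraries had 0 counts of *C4b*, so that its fitted value of 11.7 there is no measure of size.

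With each library left out, the log2 fold change ranged from -0.72 to -0.55 for *C1qa*, -0.72 to -0.60 for *C1qb*, -0.63 to -0.50 for *C1qc*, 0.79 to 1.85 for *C3*, 0.43 to 1.55 for *C4b*, 0.96 to 1.04 for *C3ar1* and 0.52 to 0.71 for *C5ar1*. From 2 to 3 of the 8 genes were higher and 3 to 3 lower. The interaction with sex ranged from -1.47 to 0.36 for *C3*, -0.042 to 0.15 for *C3ar1*, -0.71 to 2.15 for *C4b* and -0.086 to 0.34 for *C5ar1*, crossing 0 in each. The log2 difference of the ratio ranged from -0.015 to 0.070 for *C1qa*/*C1qb*, -0.13 to -0.091 for *C1qb*/*C1qc* and 0.31 to 0.50 for *C3ar1*/*C5ar1*. In the 8 libraries, *C1qa*/*C1qb* turned to -0.0031 and *C1qb*/*C1qc* had -0.10 (exact permutation test, adjusted p = 0.114). The *C1qb*/*C1qc* ratios did not overlap there, at 1.13 to 1.21 in ARG1- and 1.07 to 1.12 in ARG1+ libraries. An adjusted p of 0.114 is the smallest that 1 ratio alone can reach with so few libraries, so this test cannot decide whether the difference held.

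Of the other complement genes, 2 were higher and 1 lower, and with a library left out 0 to 3 were higher and 0 to 1 lower. The number higher was 6 by DESeq2's Wald test and 1 in the 8 libraries. With at least 10 counts in every library it was 0, because that filter removed both genes called higher, *C8g* and *Cr2*, before the test. The number lower was 0 with DESeq2 size factors, with no filter, with at least 10 counts and in the 8 libraries. What caused the other changes in number was not tested. Over all genes tested, 1089 were higher and 1593 lower, against 2155 and 1976 by DESeq2's Wald test, and 638 passed in the 8 libraries. No paired analysis was possible because the labels give no replicate number that ARG1+ and ARG1- libraries share, and so do not show which of them came from the same pool. Cd55b counts were 0, so adding them to *Cd55* gave no other value. *Cd55* had 0 counts in 9 libraries, among them the deepest, ARG1- female library 13, and the part of depth in this was not tested.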
